A study of Arabidopsis thaliana with 12 samples.

Results

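Whole roots of Arabidopsis that had spent 72 h on sulfur-deficient medium were compared with whole roots that had spent 3 h on it. The comparison used the arrays that the labels place in those groups, 2 at 72 h and 2 at 3 h, which are 4 of the 12 arrays of the series. All plants were of ecotype Columbia, and per the labels' protocols seedlings spent 5 days on standard medium before the move, so both groups had gone through the same transfer. The deficient medium held sucrose as well as nitrate, ammonium, phosphate and iron. The groups differ in hours on deficient medium, in seedling age and possibly in the hour of harvest, and these cannot be told apart. There were no arrays on standard medium at either time, and the arrays at 0 h, from roots on fresh standard medium, took no part. Nothing in the labels says that replicates 1 and 2 were grown apart, so each p-value rests on a spread that may be technical.

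Plants take up sulfate, and ATP sulfurylase activates it to adenosine phosphosulfate, which is reduced to sulfite and then, by sulfite reductase, to sulfide for cysteine. In Arabidopsis a large store of sulfur sits in glucosinolates, defence compounds built from amino acids such as methionine, whose side chain is first lengthened in a cycle that BCAT4 opens. Roots short of sulfate are known to raise beta-glucosidases such as BGLU28, which can break glucosinolates down, and to lower the genes that make glucosinolates.

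Each probe set, the group of probes for a transcript, had 1 signal per array, a linear MAS5 intensity in arbitrary units that were the same for all arrays. Differences are given as log2 signal at 72 h minus log2 signal at 3 h, with the standard error (SE) of a limma fit that took the spread between replicates from the 10 arrays on deficient medium, those at 12, 24 and 48 h included. Adjusted p-values are Benjamini-Hochberg values over all 22746 probe sets, and rose and fell are used for those below 0.05. A signal is called dim when it lay at or below the 40th percentile of its array, which was 45.3 to 49.4 over the 4 arrays. In bulk roots, fewer cells of a type and less RNA per cell cannot be told apart.

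The replicates of 3 h were less alike than those of the later times. Over 12250 probe sets above that percentile on all 10 arrays on deficient medium, log2 signals of the 3 h pair correlated at 0.972, against 0.986 for the 72 h pair. Replicate 1 of 3 h was closer to replicate 2 of 12 h, at 0.978, than to its own partner. Replicate 2 of 3 h correlated with the 72 h arrays at 0.943 and 0.933, and replicate 1 at 0.962 and 0.957. The summed signal of 3 genes that respond to touch and wounding was 251 and 1263 at 3 h and 130 and 166 at 72 h, mostly through the zinc-finger regulator STZ, at 153 and 1059 at 3 h. None of the 3 passed between 3 h and 72 h (STZ, adjusted p = 0.0624), but without 3 h replicate 1, so that replicate 2 stood alone for 3 h, STZ and WRKY53 were lower (adjusted p = 2.35e-05 and 0.0177). The part of this difference between the 3 h replicates in the results was not tested, and the main effects of leaving out single arrays are given beside the results.

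The root label was met by PYK10, the beta-glucosidase of root endoplasmic reticulum bodies, which read 13983 and 12274 at 3 h and 10486 and 11832 at 72 h. PYK10 was 1 of 3 root cell type genes measured, of which 2 were above the dim level on both arrays of a group. Of these 3 genes 0 passed, with differences from -0.83 to 0.13. Of 8 shoot photosynthesis genes measured, 0 passed the threshold in limma and 0 had an unadjusted p below 0.05. All 8 had a difference above 0, but only 6 were above the dim level on both arrays of a group. Without 3 h replicate 2, 1 of the 8 was higher. Their summed signal was 787 and 947 at 3 h and 983 and 1304 at 72 h. For the root hair genes EXPA7 and EXPA18 the summed signal was 723 and 368 at 3 h and 724 and 935 at 72 h, and neither passed (adjusted p = 0.0639 and 0.548). That result rests on 3 h replicate 1: without it both were higher (adjusted p = 0.000565 and 0.0155). Of the genes of dividing cells, 0 of 5 histone genes and 0 of 2 mitotic kinase genes passed, with 0 and 1 at an unadjusted p below 0.05.

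Between 3 h and 72 h, 1178 of 22746 probe sets changed, which is 5.18% of those tested. Of these, 632 were higher at 72 h (2.78% of all) and 546 were lower (2.40%). The counts of called members of gene lists below are to be read against these shares. The comparison and the lists were chosen with earlier results of these data known, so list counts and medians describe and test nothing. Of 285 list entries by locus, 55 had a probe set paired with 1 gene, so lists entered by locus were read only in part. At an unadjusted p below 0.05 there were 3923. A change of at least 2-fold was seen in 618, or 2.72%. In all 1178 the 2 groups did not overlap, but that share was not counted over all probe sets, so it adds no support. The calls depended on single arrays: without 3 h replicate 2 there were 679, without 72 h replicate 1 there were 736 and without 72 h replicate 2 there were 461. With each of the 10 arrays left out in turn, 355 probe sets kept their call every time, 154 higher and 201 lower. The platform table paired 599 of the 1178 with 1 gene.

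**Figure D1:**
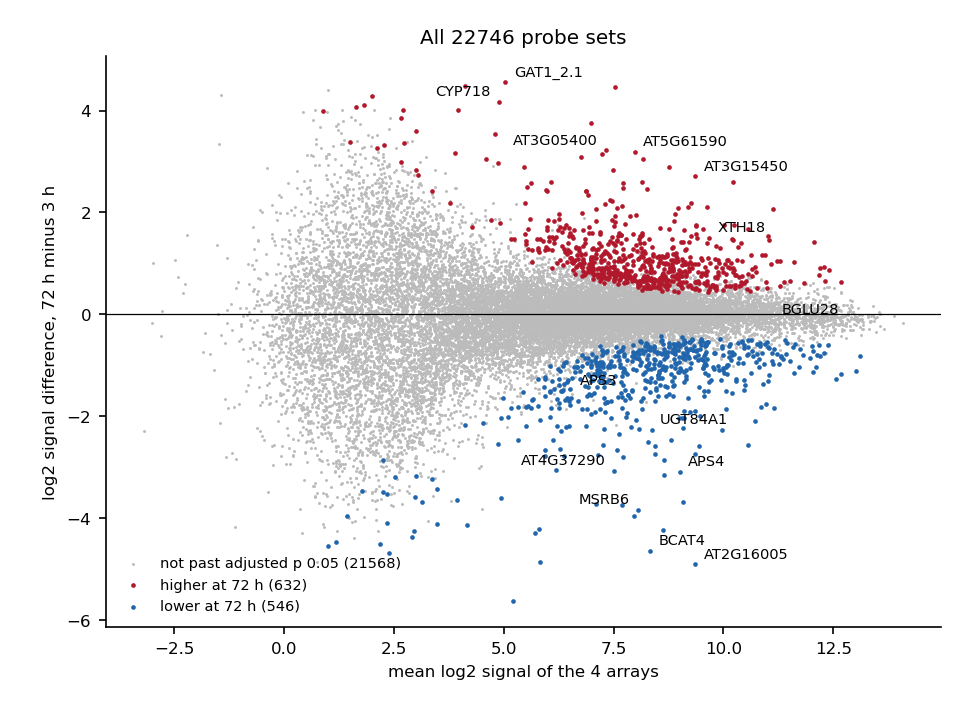
Each point is 1 of 22746 probe sets, placed by its mean log2 signal on the 4 arrays (horizontal) and its log2 difference, 72 h minus 3 h (vertical). Red points (632) were higher and blue points (546) lower at an adjusted p below 0.05. BCAT4 and AT2G16005 lie lowest among the labelled genes, and BGLU28 lies close to 0 despite a bright signal.

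The genes lower at 72 h held the differences with the smallest p-values. BCAT4 (AT3G19710), the aminotransferase at the entry to methionine chain elongation, read 1421 and 1840 at 3 h and 61.3 and 68.3 at 72 h. The 3 h arrays lay far above the 72 h arrays, and the ratio of mean signals was 25.2-fold. The log2 difference was -4.64 (SE 0.16, adjusted p = 2.57e-08), the smallest adjusted p among the genes named here. At 12, 24 and 48 h BCAT4 lay at 425 to 575 on all 6 arrays, so the fall came in 2 steps, before 12 h and after 48 h.

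Other glucosinolate genes lay lower at 72 h too. AT2G31790, entered in the gene list as UGT74C1, a glycosyltransferase, had 364 and 371 at 3 h and 68.3 and 43.3 at 72 h, with a log2 difference of -2.76 (SE 0.28, adjusted p = 0.000136). Its lower 72 h array was dim. UGT74B1 (AT1G24100), which adds glucose to the glucosinolate core, had 797 and 720 at 3 h against 324 and 258 at 72 h, a difference of -1.39 (SE 0.17, adjusted p = 0.000528).

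GSTU20 (AT1G78370), a glutathione transferase linked to methionine-derived glucosinolates, had 461 and 544 at 3 h and 182 and 130 at 72 h, a difference of -1.70 (SE 0.23, adjusted p = 0.000967). In all 4 of these genes the call held with each array left out. GTR1 and GTR2, which carry glucosinolates across membranes, did otherwise. GTR1 (AT3G47960) had 279 and 361 at 3 h and 466 and 490 at 72 h, a difference of 0.59 (SE 0.15, adjusted p = 0.0358), but lost the call without 3 h replicate 1 or either 72 h array (adjusted p up to 0.231). GTR2 (AT5G62680) had 495 and 874 at 3 h and 453 and 352 at 72 h, a difference of -0.72 (SE 0.23, adjusted p = 0.0982), with no overlap but a wide spread at 3 h. Of the 6 glucosinolate genes measured, from a list with 38 loci, 4 were lower and 1 higher. The shares over all probe sets were 2.40% lower and 2.78% higher. The median difference of the 6 was -1.55, against -0.0065 for all probe sets. Without 3 h replicate 1, GTR2 passed as well.

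Of the sulfate assimilation enzymes, entered as 22 loci, 3 could be read, and both ATP sulfurylases among them fell. APS4 (AT5G43780) had 1650 and 1375 at 3 h and 178 and 174 at 72 h, so that the 2 arrays of 72 h nearly coincided. Its log2 difference was -3.10 (SE 0.20, adjusted p = 6.21e-06), a ratio of 8.58 in mean signal. In between, APS4 stood at 1192 and 796 at 12 h, 765 and 980 at 24 h, and 358 and 272 at 48 h, and thus came down over the whole span.

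APS3 (AT4G14680) had 340 and 392 at 3 h and 131 and 129 at 72 h, with a log2 difference of -1.49 (SE 0.18, adjusted p = 0.000406). It was already at 136 and 156 at 12 h and stayed near that level, unlike APS4. SIR (AT5G04590), the sulfite reductase, had 1967 and 1789 at 3 h and 1699 and 1511 at 72 h. Its difference of -0.23 had a 95% confidence interval from -0.51 to 0.05 (adjusted p = 0.415). Neither fall lost its call with any array left out.

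Neither of the 2 markers of sulfur deficiency that could be read passed the threshold between 3 h and 72 h. BGLU28 (AT2G44460) had 1930 and 2825 at 3 h and 2005 and 2360 at 72 h, and the 72 h arrays lay between those of 3 h. The difference was -0.10, with a 95% interval from -0.79 to 0.59 (adjusted p = 0.928). The times between were not flat: BGLU28 was at 163 and 369 at 12 h, 489 and 450 at 24 h, and 646 and 1022 at 48 h.

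AT1G04770, entered in the list as SDI2, had 1030 and 873 at 3 h and 811 and 828 at 72 h, with a difference of -0.21 and an interval from -0.59 to 0.16 (adjusted p = 0.613). It was also lower in between, at 472 and 663 at 12 h. The comparison of the ends of the course thus leaves out a dip that both markers had at 12 h. No probe set could be read under its gene name for the sulfate transporters.

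**Figure D2:**
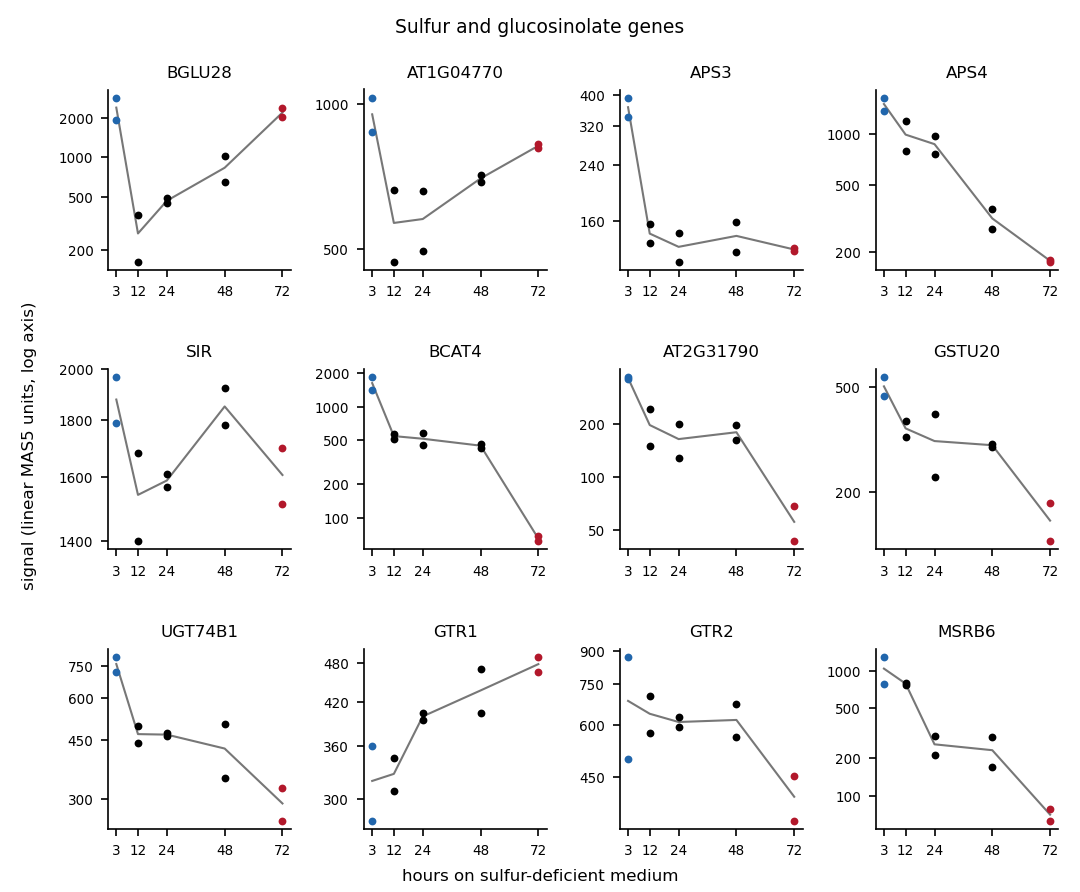
Signal (log axis, linear MAS5 units) against hours on deficient medium for the sulfur marker, sulfate assimilation and glucosinolate genes and MSRB6. Points are single arrays, 2 per time (blue 3 h, red 72 h), and lines join the means. BCAT4 and APS4 end far below their 3 h arrays, while BGLU28 and AT1G04770 dip at 12 h and return.

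Outside sulfur metabolism proper, the fall with the largest log2 size among genes named by the rule was that of AT2G16005, a locus with no symbol in the gene table. It had 4526 and 2866 at 3 h and 98.7 and 147 at 72 h, a log2 difference of -4.90 (SE 0.25, adjusted p = 9.85e-07) and a ratio of 30.1 in mean signal. Most of that fall came late, since it was still at 2364 and 2290 at 24 h and at 698 and 425 at 48 h.

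MSRB6 (AT4G04840), a reductase of oxidised methionine, had 788 and 1292 at 3 h and 63.2 and 78.5 at 72 h, a difference of -3.84 (SE 0.27, adjusted p = 1.22e-05). The other methionine sulfoxide reductases did not follow it past the threshold. MSRB5 (AT4G04830), a brighter member, had 4373 and 5604 at 3 h and 4661 and 4427 at 72 h, a difference of -0.12 (95% interval -0.45 to 0.20). MSRB9 (AT4G21850) had 1612 and 1627 at 3 h and 2042 and 2512 at 72 h, a difference of 0.48 (SE 0.13, adjusted p = 0.0577). Over all probe sets 2.40% were lower. Of 5 family members measured, 1 was lower and 0 higher, with a median of 0.07, but without 3 h replicate 1 a member counted as higher.

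The remaining genes among the 12 lowest were mostly loci without a symbol. AT4G37290 had 475 and 591 at 3 h and 65.0 and 60.8 at 72 h (difference -3.07, SE 0.21, adjusted p = 9.58e-06). It had already come down to 109 and 115 at 12 h, a faster course than that of AT2G16005. AT4G22212 had 2759 and 4927 at 3 h and 754 and 514 at 72 h (difference -2.57, SE 0.26, adjusted p = 0.000106). AT2G22590 had 379 and 613 at 3 h and 79.9 and 73.1 at 72 h (difference -2.66, SE 0.23, adjusted p = 3.83e-05). The rule that named these 3 required groups that did not overlap, so the gap between the groups is no added support.

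Where a group was dim on both arrays, only a bound on the fold is given, with the signal of that group taken as no lower than the 40th percentile of its array. AT3G05950 was at least 4.60-fold lower at 72 h (119 and 374 at 3 h, adjusted p = 0.00153) and AT2G25510 at least 4.72-fold lower (280 and 167 at 3 h, adjusted p = 0.00059). Of the 12 lowest genes, 11 kept their call with each array left out. The exception was AT3G12900, entered among the iron deficiency genes as S8H, with 416 and 130 at 3 h and 49.7 and 2.87 at 72 h (adjusted p = 0.0195). It lost the call without 3 h replicate 1 or 72 h replicate 2 (adjusted p up to 0.0911).

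Genes of UDP-glycosyltransferases (UGTs), which attach sugars to hormones, flavonoids and phenolic acids, moved in both directions. Members were counted by symbol, so genes without a UGT symbol in the gene table are not in the family count. AT2G31790, described above, and IAGLU, described below, are left out in this way, and both were lower. Other genes left out were not counted in either direction. Of 47 measured by symbol, 8 were lower and 3 higher, and 29 were above the dim level on both arrays of a group. Over all probe sets 2.40% were lower and 2.78% higher. The median difference of the UGT family was -0.11. UGT84A1 (AT4G15480), which glucosylates hydroxycinnamic acids, had 629 and 841 at 3 h and 162 and 140 at 72 h, a difference of -2.27 (SE 0.16, adjusted p = 1.22e-05). Its signal at 24 h, 350 and 309, lay between the ends.

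UGT78D1 (AT1G30530), a flavonol rhamnosyltransferase, had 112 and 214 at 3 h and was dim at 72 h, at 29.1 and 20.6, so it was at least 3.39-fold lower (adjusted p = 0.0016). UGT84A4 (AT4G15500), a relative of UGT84A1, had 937 and 739 at 3 h and 388 and 388 at 72 h, a difference of -1.10 (SE 0.15, adjusted p = 0.00082). UGT78D2 (AT5G17050), a flavonoid glucosyltransferase, had 1330 and 1733 at 3 h and 748 and 779 at 72 h, a difference of -0.99 (SE 0.19, adjusted p = 0.00807). Of 6 members of the UGT78D and UGT84A branches, a set picked after the values were seen, 4 were lower and 0 higher. The share over all probe sets was 2.40% lower. UGT78D2 lost the call without 3 h replicate 2 or either 72 h array (adjusted p up to 0.0686), and the other 3 kept it.

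UGT73B4 (AT2G15490) had 1758 and 1796 at 3 h and 910 and 1056 at 72 h, a difference of -0.86 (SE 0.12, adjusted p = 0.000984). UGT85A2 (AT1G22360) went the other way, with 475 and 358 at 3 h and 875 and 927 at 72 h, a difference of 1.13 (SE 0.14, adjusted p = 0.000528). UGT88A1 and UGT71C2 were also higher, by 1.18 and 1.18, and UGT73B5 and UGT71C3 lower, by -0.87 and -0.78. Each of these last 4 lost the call without at least 1 array, and the family's counts ran from 6 to 8 lower and from 2 to 4 higher over the 4 arrays left out in turn.

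Tau glutathione transferases, which join glutathione to reactive compounds, were 3 lower and 1 higher of 11. Over all probe sets the shares were 2.40% and 2.78%. Besides GSTU20, GSTU18 (94 and 148 at 3 h, 37.7 and 47.9 at 72 h) and GSTU22 (5809 and 5520 at 3 h, 3579 and 3880 at 72 h) fell, by 1.47 and 0.60 on the log2 scale (adjusted p = 0.0162 and 0.0193). Both lost the call without 3 h replicate 2 or either 72 h array, which each left 1 lower. GSTU22 also lost it without 3 h replicate 1 (adjusted p = 0.0514), where the family had 2 higher and 3 lower. GSTU27 (AT3G43800) rose from 1291 and 1186 to 2161 and 2038, a difference of 0.76 (SE 0.13, adjusted p = 0.00431), and kept the call with each array left out.

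**Figure D3:**
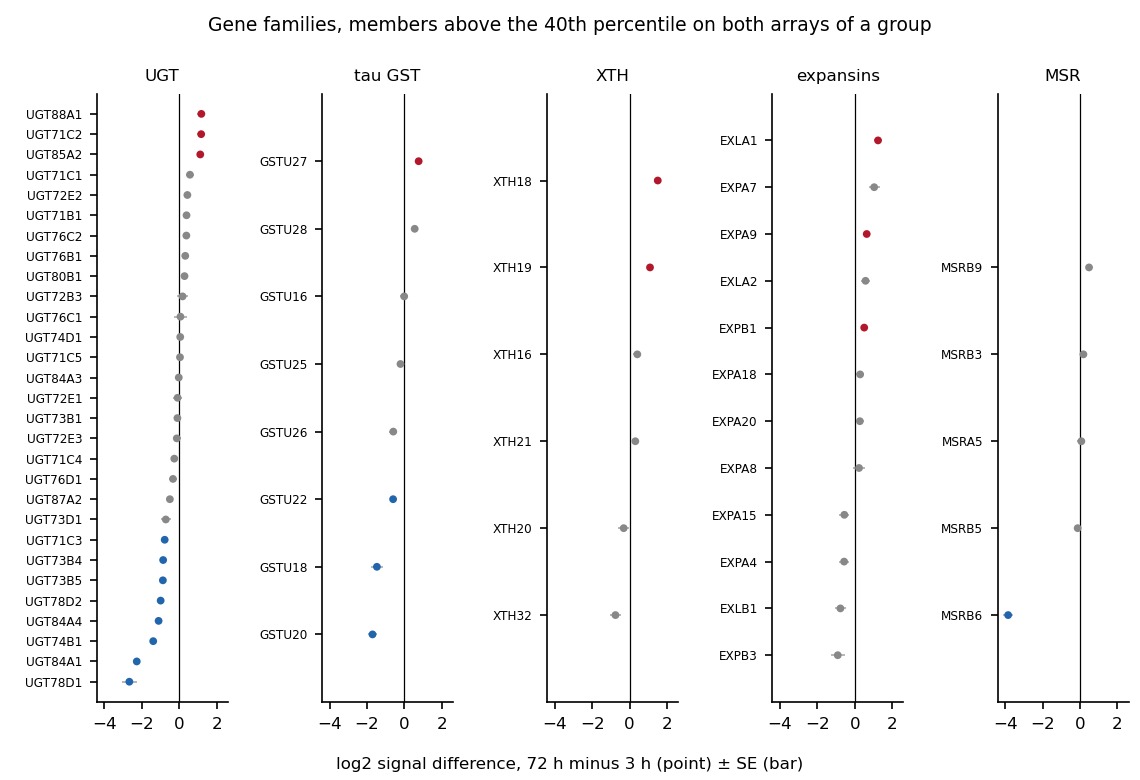
Log2 difference, 72 h minus 3 h (point), with its SE (bar), for the members of 5 gene families that were above the 40th percentile on both arrays of a group. Red members were higher and blue members lower at an adjusted p below 0.05. MSRB6 stands alone below its family, and UGTs lie on both sides of 0.

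Of the 12 genes with the highest differences, AT3G05400 had the smallest SE. It had 52.0 and 54.2 at 3 h, just above the dim level, and 497 and 490 at 72 h, a difference of 3.22 (SE 0.24, adjusted p = 1.40e-05). Its signal at 12 h, 49.3 and 61.0, was that of 3 h, and at 48 h it was 168 and 258, so the rise came after 12 h.

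AT5G61590, also known as DEWAX, a transcription factor that represses wax synthesis, had 117 and 60.6 at 3 h and 744 and 788 at 72 h (difference 3.18, SE 0.28, adjusted p = 3.94e-05). In contrast to AT3G05400 it was at 308 and 309 by 12 h. AT5G14650 had 173 and 58.1 at 3 h and 713 and 969 at 72 h (difference 3.05, SE 0.45, adjusted p = 0.00156). CYP718 (AT2G42850), a cytochrome P450, was dim at 3 h and at 99.2 and 160 at 72 h, at least 2.66-fold higher (adjusted p = 3.35e-05). It had 81.9 and 90.9 at 12 h, so it left the dim range early.

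Of the 12 highest genes, 7 were dim on both arrays at 3 h, and 5 of the 12 kept their call with each array left out, namely CYP718, AT3G05400, AT5G61590, AT5G14650 and AT3G15450. Those that did not included AT1G12030, at least 2.54-fold higher (adjusted p = 0.00352), which lost it without 72 h replicate 1 (adjusted p = 0.0515), and AT1G19900, with 147 and 50.5 at 3 h and 366 and 729 at 72 h, which lost it without 72 h replicate 2 (adjusted p = 0.0526). AT3G23880 and AT3G07070 were at least 1.31-fold and 1.72-fold higher and also lost the call without 72 h replicate 2. AT3G07070 lost it as well without 3 h replicate 2, 72 h replicate 1 or either 48 h array.

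**Figure D4:**
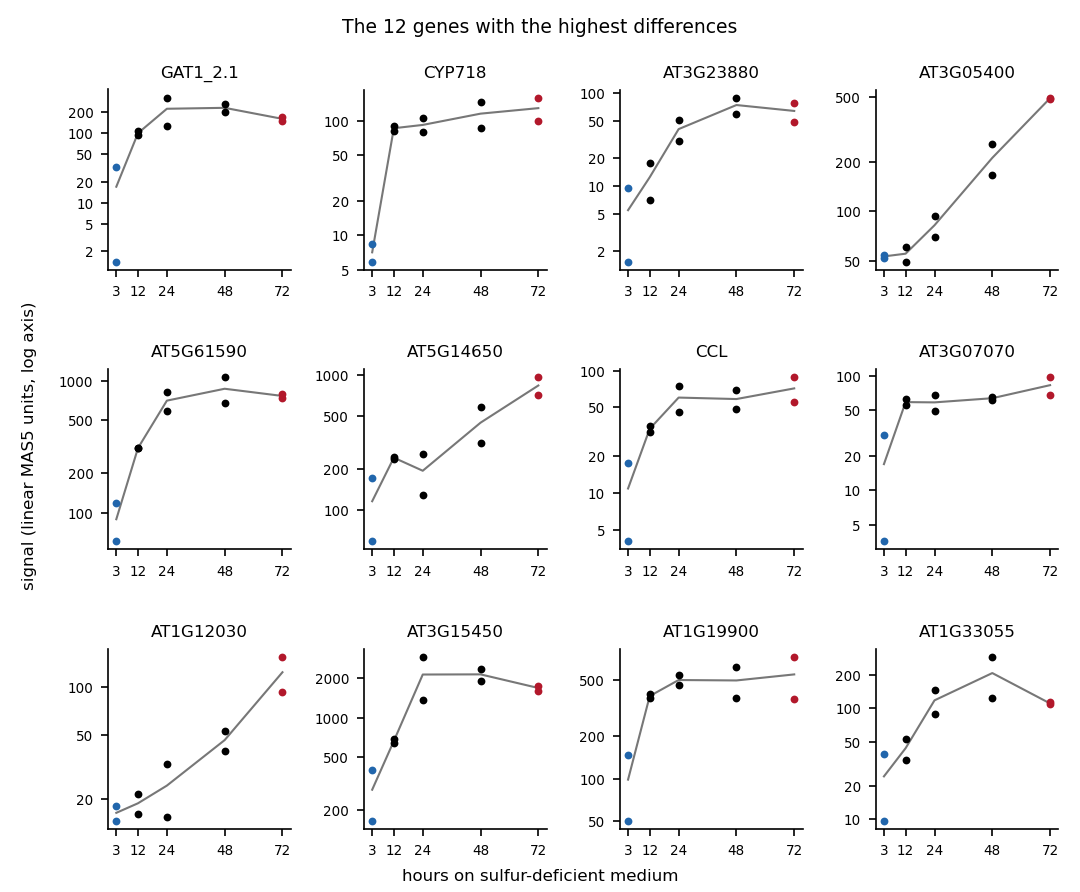
Signal (log axis, linear MAS5 units) against hours on deficient medium for the 12 genes with the highest log2 differences. Points are single arrays (blue 3 h, red 72 h), and lines join the means. AT3G05400 and AT1G12030 climb to the end, while the 24 h arrays of AT5G61590 and AT3G15450 already lie on both sides of their 72 h arrays.

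Genes known to rise when sugar runs short were higher at 72 h in 4 of 9 cases and lower in 0, with a median difference of 0.48. The list held 24 loci. Over all probe sets 2.78% were higher. AT3G15450 had 403 and 164 at 3 h and 1760 and 1612 at 72 h, a difference of 2.71 (SE 0.37, adjusted p = 0.000963). It had reached 1359 and 2911 by 24 h. GAT1_2.1 (AT1G15040), a glutamine amidotransferase-like gene, was dim at 3 h, at 32.4 and 1.42, and at 149 and 170 at 72 h, at least 3.37-fold higher (adjusted p = 0.0181).

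AKINBETA1 (AT5G21170), a subunit of the SnRK1 energy-sensing kinase, had 227 and 227 at 3 h and 347 and 400 at 72 h, a difference of 0.72 (SE 0.16, adjusted p = 0.0227). AT2G20670 had 208 and 61.7 at 3 h and 367 and 320 at 72 h, a difference of 1.60 (SE 0.40, adjusted p = 0.0397). Its size rested on the 3 h replicates: it was 2.47 without replicate 1 and 0.72 without replicate 2. The 3 h replicates of AT3G15450, GAT1_2.1 and AT2G20670 were far apart, each with replicate 2 the lower. Without that array 2 of the 9 genes were higher, without 3 h replicate 1 there were 3, and without either 72 h array only AT3G15450 was. Of 7 genes of branched-chain amino acid breakdown, several of which are in the same list, 0 passed, with differences from -0.28 to 0.61 and 2 genes at an unadjusted p below 0.05. Without 3 h replicate 1, 1 of them was higher.

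Some cell wall genes rose. XTH18 (AT4G30280), which cuts and rejoins xyloglucan, had 453 and 523 at 3 h and 1398 and 1367 at 72 h, a difference of 1.51 (SE 0.19, adjusted p = 0.000652). XTH19 (AT4G30290) had 566 and 664 at 3 h and 1341 and 1274 at 72 h, a difference of 1.09 (SE 0.15, adjusted p = 0.000967). These close relatives were the 2 called of 9 XTH genes, against 2.78% higher over all probe sets. Both kept the call with each array left out. The counts were 3 higher and 1 lower without 3 h replicate 1, and 2 higher and 1 lower without 72 h replicate 1. Whether the probes of one of these relatives also bind the other's RNA was not tested.

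Of 18 expansins, proteins that loosen the wall, 3 were higher and 0 lower, with a median of 0.25. Over all probe sets 2.78% were higher. EXLA1 (AT3G45970) had 142 and 205 at 3 h and 363 and 451 at 72 h, a difference of 1.24 (SE 0.19, adjusted p = 0.00241). EXPA9 (599 and 457 at 3 h, 885 and 750 at 72 h) and EXPB1 (343 and 367 at 3 h, 506 and 500 at 72 h) rose less, by 0.64 and 0.50. Without 3 h replicate 2, or without either 72 h array, EXLA1 was the only member left, and without 3 h replicate 1 there were 4 higher and 3 lower.

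Among 14 auxin response genes GH3.17 (AT1G28130), which conjugates auxin to an amino acid, was higher and the other 13 did not pass, while without 3 h replicate 1 there were 2 higher. It had 837 and 537 at 3 h and 1423 and 1267 at 72 h, a difference of 1.00 (SE 0.17, adjusted p = 0.00477). Over all probe sets 2.78% were higher. Both enzymes measured for the breakdown of allantoin, a nitrogen-rich product of purines, were higher, in a pair picked after the values were seen. ALN, the allantoinase, had 184 and 151 at 3 h and 278 and 307 at 72 h, and AAH, the allantoate amidohydrolase, 140 and 126 against 250 and 217. Each differed by 0.81 (adjusted p = 0.0404 and 0.0137) and lost the call without 3 h replicate 2 or either 72 h array.

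The 2 clock-linked genes that could be read, from a list with 20 loci, moved in opposite directions. GI (AT1G22770), the clock component GIGANTEA, had 425 and 442 at 3 h and 294 and 257 at 72 h, a difference of -0.66 (SE 0.15, adjusted p = 0.0246). CCL was dim at 3 h and at 54.8 and 88.1 at 72 h, at least 1.47-fold higher (adjusted p = 0.0104). Both lost the call without 72 h replicate 2, GI also without 3 h replicate 2 or 72 h replicate 1, and harvest hour was not given in the labels.

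Of 4 iron deficiency genes measured, from a list with 17 loci, 2 were lower and 0 higher. Their median was -0.95, and 2.40% were lower over all probe sets. Besides AT3G12900, AT3G13610, known as F6'H1, which makes the coumarin scopoletin, had 5072 and 3157 at 3 h and 2310 and 1974 at 72 h, a difference of -0.91 (SE 0.22, adjusted p = 0.03). Without 3 h replicate 1, or without 72 h replicate 2, 0 of the 4 passed, and without 72 h replicate 1 there was 1. The difference of AT3G13610 shrank to -0.56 without 3 h replicate 1. For the autophagy and hypoxia genes that follow, the share over all probe sets was 2.78% higher. The hypoxia list held 10 loci. Of 8 autophagy genes ATG8F was higher, by 0.83 (adjusted p = 0.0389), but by 0.49 without 3 h replicate 2 (adjusted p = 0.278). Of 6 WRKY factors WRKY47 was higher and WRKY6 lower, against 5.18% called over all probe sets. The list of 23 P450 genes with a family and subfamily symbol leaves out CYP718. In it CYP71B26 was higher and CYP71B37 lower, also against 5.18% called over all probe sets. Each of these 5 lost the call with at least 2 of the 4 arrays left out in turn. Of 3 hypoxia genes AT1G33055 was at least 2.34-fold higher (adjusted p = 0.0225), and it lost the call without 3 h replicate 1 or either 72 h array. Of 20 beta-glucosidase genes 0 passed and 4 had an unadjusted p below 0.05, with 10 differences above 0 and a median of 0.02, while without 3 h replicate 1 there was 1 higher.

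Genes encoded in the plastid itself, a set picked after the values were seen, lay lower at 72 h. Of 69 measured, 10 were lower and 0 higher, against 2.40% lower over all probe sets. A difference below 0 was seen in 59, and the median was -0.42. The summed signal of the 69 was 51751 and 50704 at 3 h and 39835 and 33528 at 72 h. It was 44155 and 40509 at 12 h, 51914 and 42832 at 24 h, and 47052 and 43183 at 48 h. By this sum, in which bright genes weigh most, both 72 h arrays lay lowest. Their median signal gave another order. It was 368 and 357 at 3 h, 283 and 240 at 12 h, and 296 and 302 at 72 h, so 12 h lay below 72 h.

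The plastid gene rps4, for a ribosomal protein, had 1506 and 1670 at 3 h and 874 and 826 at 72 h, a difference of -0.90 (SE 0.14, adjusted p = 0.00292), and kept the call with each array left out. The gene petL, for a subunit of the cytochrome complex of photosynthesis, had 216 and 264 at 3 h and 125 and 109 at 72 h, a difference of -1.03 (SE 0.17, adjusted p = 0.0038). Without 72 h replicate 2 only 1 of the 69 was called, and without 3 h replicate 2 there were 5. With no trend in the prior variance 0 passed. The 8 nuclear photosynthesis genes above had differences on the other side of 0, and the difference between the sets was not tested.

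**Figure D5:**
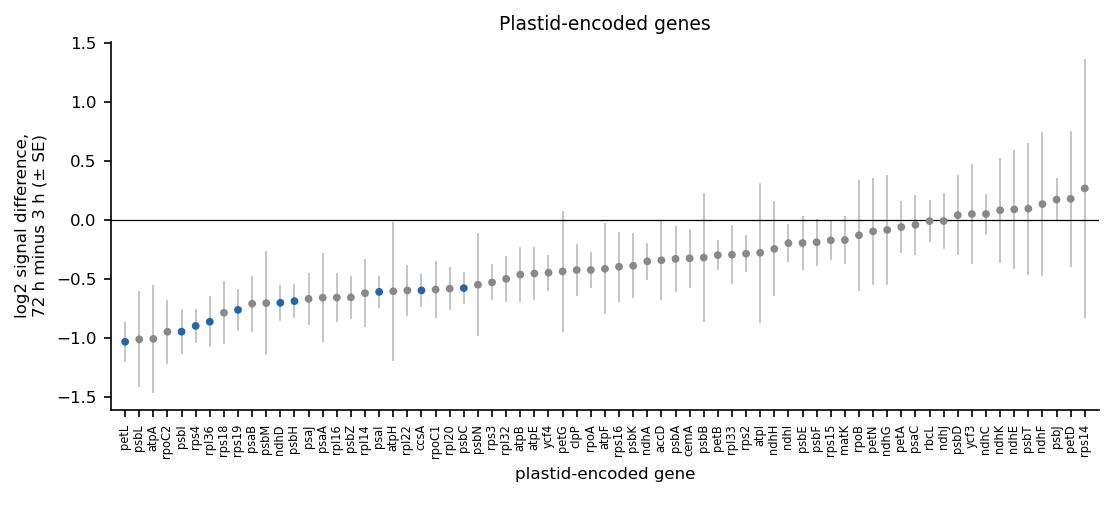
Log2 difference, 72 h minus 3 h (point), with its SE (bar), for 69 plastid-encoded genes in order of their difference. Blue points (10) were lower at an adjusted p below 0.05, and 59 points lie below 0.

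The course between the ends differed little between the risers and the fallers as groups. For the 632 higher probe sets the median log2 difference from 3 h was 0.52 at 12 h, 0.77 at 24 h, 0.90 at 48 h and 0.99 at 72 h. For the 546 lower ones it was -0.54, -0.71, -0.81 and -1.06. These medians share the 3 h arrays and were taken on probe sets chosen by the 72 h difference, so they describe the course and test nothing.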

How the data were processed

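Whole-root RNA was measured on 12 one-colour arrays. The deposited values are linear intensity signals, and MAS5 is named in the submitters' processing notes, with its version and the genome build not given in the sources used here. On every array the 2% trimmed mean was 250.02 to 250.03, so values were used as deposited. Log2 intensity without offset was fitted with limma 3.58.1 in R 4.3.3 (group means of 10 arrays, 5 residual degrees of freedom, eBayes with trend) over 22746 probe sets, without 64 controls. The file has no detection calls, so dim signals are uncertain, and the few arrays limit the precision. The fit was tested on simulated data. The platform table paired 13513 probe sets with 1 gene, 503 with several and left 8730 unlisted, and 13436 matched assembly TAIR10.1. Of several probe sets of a gene, that with the highest mean log2 signal was used. Of 38 gene lists, 11 had no named probe set (aquaporins, ethylene response factors, heat shock, jasmonate, MYB factors, nitrate, phosphate starvation, ribosomal proteins, suberin and endodermis, sulfate transporters, xylem and phloem).

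Genes named were the 12 highest and 12 lowest differences among called genes whose groups did not overlap and whose brighter group lay above the 40th percentile on both arrays, up to 4 members of each list by p, and all measured sulfate and glucosinolate genes and sulfur markers. The comparison and lists were chosen with earlier results of these data known. Alternatives were an offset of 16.3, quantile normalization, filters at the 40th and 60th percentile, no trend, a replicate block, other sets of arrays, and each array left out.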

Additional observations from a re-analysis of the deposited data

How the results depend on the processing

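No direction of a called result reversed under any alternative, but most alternatives could not have reversed one. Where the groups do not overlap, leaving out an array or adding an offset keeps the sign. Of the other alternatives, only quantile normalization changed the differences. Without the trend of the prior variance 246 probe sets passed (96 higher, 150 lower, 228 at least 2-fold). Of the 67 called named genes, 49 then lost the call. Among them were GSTU20, GSTU27, XTH18, XTH19, EXLA1, GH3.17, UGT73B4, rps4, AT3G15450 and AT5G14650, which kept it with each array left out. With the 4 arrays of 3 h and 72 h alone, 569 passed (270 higher, 299 lower). Of the 67 called named genes, 32 then lost the call, among them GH3.17, CCL and GAT1_2.1 (limma adjusted p = 0.0537, 0.0935 and 0.12). With an array left out, the totals ran from 461 to 1627, higher from 200 to 923, lower from 261 to 704 and at least 2-fold from 360 to 925. Of the 67 called named genes, 29 kept the call with each of the 4 compared arrays left out. Quantile normalization (1163), the offset (1093), all 12 arrays (1073) and the filters (1429 of 14496 and 1294 of 9973) gave totals within 1.5 times of 1178.

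The labels do not say whether the replicate numbers pair the arrays, and correlations of array deviations cannot show it. Deviations of same-numbered arrays of 3 h and 72 h correlated at -0.162 over 12250 probe sets. Over the 10 pairs of groups the correlations lay between -0.162 and 0.064. The replicate block gave 1078 calls. With the 4 arrays alone it gave 575 (283 higher, 292 lower), and the crossed pairing, added after seeing the data, gave 1599. Neither count shows whether the arrays were paired.

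Depth has no count here, and signal limits the calls instead: 35 called probe sets were dim on all 4 arrays, and in 169 the dimmer group was not above the 40th percentile on both, so their sizes are uncertain.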

Other observations

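Outside the genes named by the rule, 15 genes with a symbol of their own passed the threshold with each array left out, 5 higher and 10 lower at 72 h. They were chosen after their values were seen. RALFL27, a gene of the RALF signalling peptide family, read 124 and 115 at 3 h and 323 and 383 at 72 h, a log2 difference of 1.56 (SE 0.14, adjusted p = 5.16e-05). WNK7, a protein kinase, had 141 and 87.2 at 3 h and 266 and 324 at 72 h (difference 1.41). GT2, a trihelix transcription factor, had 120 and 106 at 3 h and 235 and 275 at 72 h (difference 1.17). The tubulin gene TUB1 was at 934 and 705 at 3 h and at 1406 and 1408 at 72 h (difference 0.79), and sks15 was higher by 1.04.

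Of the 10 lower genes, NAMT1, a methyltransferase gene, had 139 and 151 at 3 h and was dim at 72 h. GRX480, a glutaredoxin, had 370 and 353 at 3 h and 103 and 136 at 72 h (difference -1.61, SE 0.18, adjusted p = 0.000295). PUB23, a ubiquitin ligase of stress responses, had 503 and 598 at 3 h and 212 and 173 at 72 h (difference -1.52). TAAC, a plastid adenylate carrier, had 298 and 332 at 3 h and 125 and 148 at 72 h (difference -1.21). IAGLU, which glucosylates auxin, had 866 and 842 at 3 h and 441 and 440 at 72 h (difference -0.96).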
